A study of Mus musculus with 14 samples.

Results

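Mouse embryonic fibroblasts of strain OG2/129SV were transduced with Oct4, Sox2, Klf4 and c-Myc together with Cdk9-DN, and were compared 4 days after infection with fibroblasts that received the same factors together with a control vector. All cells were kept in embryonic stem cell medium with fetal bovine serum and LIF. The comparison used 2 Cdk9-DN libraries and 2 control libraries, 4 of the 14 RNA sequencing libraries of a series that also covered days 3, 5 and 10. Both groups carried the reprogramming factors, so the comparison concerned Cdk9-DN in reprogramming cells and not reprogramming itself. The name Cdk9-DN denotes a dominant-negative Cdk9, and the labels describe no deletion of the endogenous gene. The labels do not say whether the libraries of a group came from separate cultures. P-values thus measure the spread between libraries of a group, pooled over days 4, 5 and 10, which may be technical. Levels are FPKM, fragments scaled to transcript length and sequencing depth, as computed by the authors.

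Cdk9 and a cyclin T form P-TEFb, the kinase complex that phosphorylates paused RNA polymerase II and its pausing factors and so releases the polymerase into productive elongation. P-TEFb is held inactive by Hexim1 and a small nuclear RNA, and is recruited to genes by Myc and within super elongation complexes. Genes induced within minutes of a signal, such as Fos and Egr1, are classic examples of genes held at this step. Early reprogramming of fibroblasts is known for the loss of mesenchymal genes and the gain of epithelial genes, which precede the pluripotency network.

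The 4 libraries were of similar depth. The confidence bounds of the FPKM values implied 10.2 and 11.9 M fragments in the Cdk9-DN libraries and 9.75 and 12.1 M in the control libraries. At least 1 FPKM was reached by 5047 to 5141 genes per library. The 10 highest genes held 35% and 44.3% of the summed FPKM in Cdk9-DN replicates 1 and 2, and 33.4% and 43.0% in control replicates 1 and 2, so this share differed by replicate number and less by vector. The fibroblast marker Thy1 had 73.3 FPKM in the 1 Cdk9-DN library that listed it and 83.6 and 81.9 FPKM in the control libraries. The muscle markers Myod1 and Myog were at 0 in all 4 libraries, and of the listed epithelial and pluripotency markers all but Krt8, Cldn3 and Fgf4 stayed below 1.1 FPKM. Both groups thus carried fibroblast transcripts and low levels of most epithelial and pluripotency markers. Cdk9, the cyclin T gene Ccnt1, Pou5f1 (Oct4) and Klf4 were not analysed here, so the level of the targeted kinase was not checked. In RNA from whole cultures, fewer cells of a type and less RNA per cell cannot be told apart.

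At day 4 few single genes separated Cdk9-DN from control cells beyond the spread between libraries. Of 24442 genes listed in both groups, 5950 had 1 FPKM or more in no fewer than 2 of the 12 replicated libraries (days 4, 5 and 10) and could be tested with limma on log2(FPKM + 1). At a Benjamini-Hochberg adjusted p under 0.05, 2 genes (0.0336%) were called, 0 higher and 2 lower in Cdk9-DN cells. They were Dhrs13, which encodes a member of the short-chain dehydrogenase/reductase family, and the small nucleolar RNA gene SNORA35. At an unadjusted p under 0.05 there were 388 genes (6.52%), 151 higher (2.54%) and 237 lower (3.98%). The median log2 difference over all genes tested was -0.0052. When the libraries were rescaled by median-of-ratios factors, 201 genes were higher and 194 lower at that p, and the median was 0.0036. The excess of lower genes thus depended on the scaling. Of the 5950 genes, 2769 were protein-coding, 1442 processed pseudogenes and 706 small RNA genes. In a fit of the protein-coding genes alone, chosen after seeing the data, 96 were higher and 174 lower at that p. The shares set beside the gene lists below are over all 5950 genes, not over protein-coding genes alone. The count of 2 called genes is small and moved with the libraries used. Leaving out Cdk9-DN replicate 1 or 2 gave 10 calls (4 higher, 6 lower) and 8 calls (4 and 4), and leaving out control replicate 1 or 2 gave 7 calls (3 higher, 4 lower) and 6 calls (3 and 3).

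**Figure D1:**
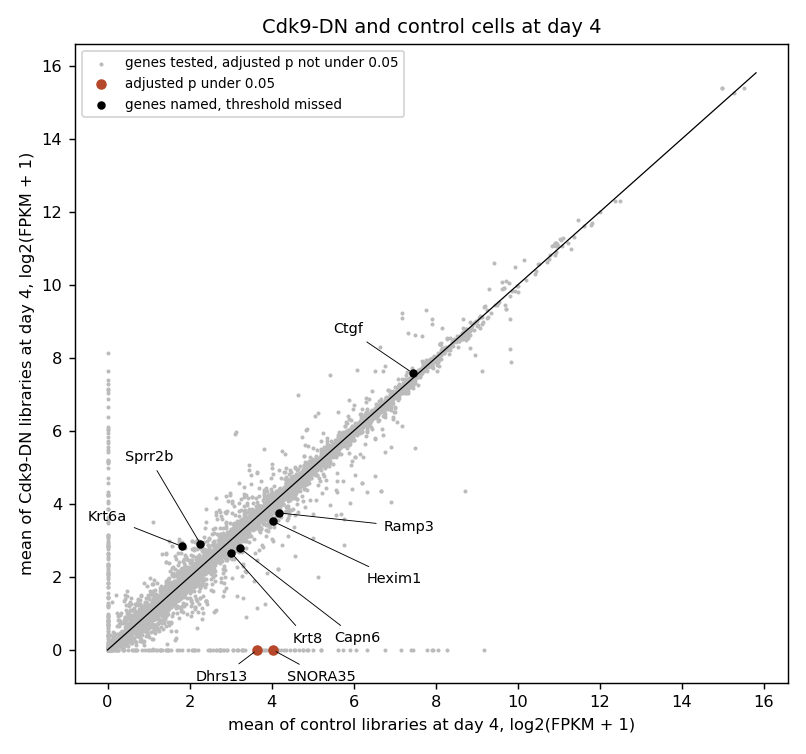
Mean level of each of 5950 tested genes in the Cdk9-DN libraries (vertical axis) and the control libraries (horizontal axis) at day 4, both as log2(FPKM + 1), with the line of equal levels. Most genes lie along the line; the 2 called genes, Dhrs13 and SNORA35, lie on the lower edge at 0 FPKM in Cdk9-DN cells, where many genes that missed the threshold also lie.

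The distance between the groups at day 4 was close to that between replicates. Over 2661 genes with a mean of at least 5 FPKM and a value in all 4 libraries, the median absolute log2 difference between a Cdk9-DN and a control library was 0.131. Between the Cdk9-DN libraries it was 0.132, about the same, and between the control libraries 0.118, slightly less. At day 10 the same measure was 0.322 between the vectors, against 0.109 within Cdk9-DN and 0.154 within control cells. The precision of the day 4 comparison limits what small differences it can show. The 95% confidence interval of the log2 difference had a median distance of 0.28 from estimate to limit over 3555 genes with a mean of at least 5 FPKM. For 2843 of these genes (80.0%) the whole interval lay within 1 log2 unit of 0, and for 2284 (64.2%) it lay within 0.5.

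**Figure D2:**
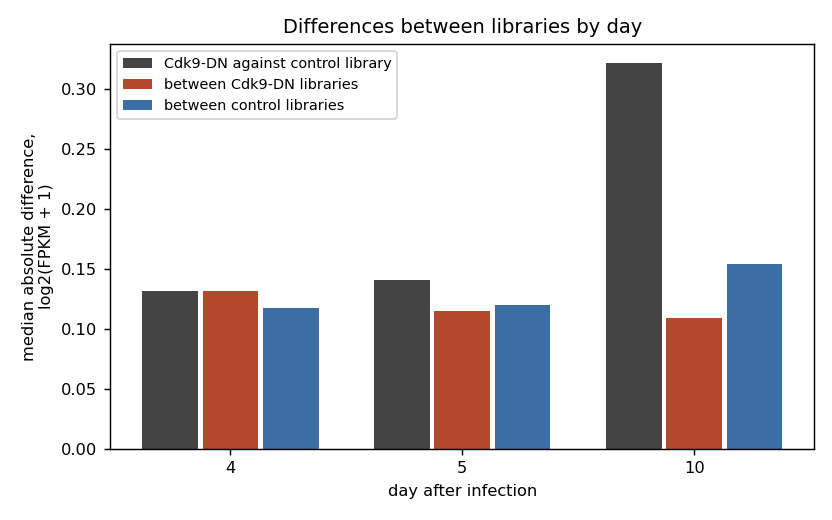
Median absolute difference of log2(FPKM + 1) between libraries, for genes with a mean of at least 5 FPKM, by day after infection; bars give Cdk9-DN against control libraries, then the 2 Cdk9-DN libraries, then the 2 control libraries. At day 4 all 3 bars lie between 0.118 and 0.132, while at day 10 the bar between the vectors reaches 0.322.

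Dhrs13 (chr11:77845782-77851368, mm9, 5 exons) was listed at 0 FPKM in both Cdk9-DN libraries, against 11.9 and 11.2 FPKM in the control libraries. The adjusted p was 0.00438 in limma. Since a group was listed at 0 no fold is given, and the fitted difference depends on the pseudocount. The bounds of the control values implied 129 and 157 fragments, so the control levels did not rest on a few reads. The same split was present on the other days. Dhrs13 was at 0 in both Cdk9-DN libraries of day 5 and in the 1 of day 10 that listed it. It had 9.22 and 12.6 FPKM in the control libraries of day 5, 10.5 FPKM in the 1 control library of day 10 that listed it and 9.01 FPKM in the control library of day 3. Every Cdk9-DN library that listed the gene was thus at 0, and every control library that listed it was near 10 FPKM. In these tables, a value of exactly 0 also occurred for well-covered genes within a group. At day 4, 7 tested genes were at 0 in 1 Cdk9-DN library with at least 100 implied fragments in the other, and 4 genes were so between the control libraries. Dhrs13 was the 1 gene at 0 in both libraries of a vector with at least 100 implied fragments in both libraries of the other vector at day 4. At day 5 there were 3 such genes, Dhrs13 again and, with the control libraries at 0, Ift20 and Pvrl2. Whether the 0 of Dhrs13 is an absent transcript or a value that was not estimated was not tested.

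SNORA35 (chrX:143918836-143918964, mm9) is annotated as a small nucleolar RNA of the H/ACA class, RNAs that guide pseudouridylation. It was listed at 0 FPKM in both Cdk9-DN libraries, against 17.0 and 13.8 FPKM in the control libraries, with an adjusted p of 5.23e-06 in limma. The bounds implied 1 fragment in each control library, and the gene was at 0 in all 10 libraries of the other days. The call therefore rested on 1 fragment per control library, set against a spread estimated mostly from libraries at 0. With the day 4 libraries alone the adjusted p was 0.0694. The sequence is shown because a gene of this length reached at least 13.8 FPKM with 1 implied fragment. The GENCODE M21 transcript has 129 bases, with the ACA box, placed 3 bases from the end, in capitals.
SNORA35: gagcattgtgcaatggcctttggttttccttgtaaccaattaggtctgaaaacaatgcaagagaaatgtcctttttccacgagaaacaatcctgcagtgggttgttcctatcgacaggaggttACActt

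Values of 0 in a whole group were frequent among the genes tested and went both ways. In Cdk9-DN cells 88 genes were at 0 in every listed library with a mean of at least 1 FPKM in control cells, and 63 of them were small RNA genes. In control cells 87 genes were at 0 with a mean of at least 1 FPKM in Cdk9-DN cells, and 60 of them were small RNA genes. Only 4 of the 88 and 10 of the 87 had at least 20 implied fragments in a library of the other vector. When every gene with a 0 in any day 4 library was left out, 0 of 5138 genes were called by limma and 361 had an unadjusted p under 0.05.

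The part of the transcription machinery that Cdk9-DN addresses was read through 43 genes of P-TEFb, pausing and elongation, of which 11 were listed at day 4 and 7 tested. None was called, and 1 was lower at an unadjusted p under 0.05, against 3.98% lower over all genes tested. That gene was Hexim1 (chr11:102977639-102981039, mm9, 1 exon), the inhibitory partner of P-TEFb. Hexim1 had 10.5 FPKM in each of the 2 Cdk9-DN libraries, against 15.4 FPKM in the 1 control library that listed it. The log2 difference was -0.51 with a 95% interval of -0.77 to -0.25, and the adjusted p was 0.414 in limma. The lower level was seen on each day of the series. Hexim1 had 10.9 FPKM in the Cdk9-DN and 17.4 FPKM in the control library of day 3. At day 5 it had 8.99 and 9.47 FPKM with Cdk9-DN and 16.8 and 15.4 FPKM with the control vector. At day 10 it had 11.1 and 11.6 FPKM with Cdk9-DN and 14.7 and 12.3 FPKM with the control vector. All 7 Cdk9-DN libraries lay below all 6 control libraries that listed Hexim1, although no single day passed the threshold. The adjusted p was 0.0606 at day 5 and 0.108 at day 10.

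The other tested members of the group lay close to their controls. Larp7, which stabilises the small nuclear RNA that holds P-TEFb, had 25.8 FPKM in 1 Cdk9-DN library and 24.5 and 25.1 FPKM in the control libraries. Leo1, a subunit of the PAF elongation complex, had 27.8 and 25.6 FPKM with Cdk9-DN and 27.2 and 30.0 FPKM in control cells. Ell2, an elongation factor of the super elongation complex, had 8.36 and 7.61 FPKM with Cdk9-DN and 7.78 and 6.61 FPKM in control cells. The Leo1 and Ell2 groups overlapped, and the 1 Larp7 value with Cdk9-DN lay just above both control values. The median log2 difference of the 7 genes was 0.05.

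Promoters are printed for Dhrs13 and Hexim1, whose Cdk9-DN libraries all lay below the control libraries, and for Cyr61, a matricellular signalling gene whose day 4 Cdk9-DN libraries lay above control, as given with the TGF-beta and YAP response genes. They run from 250 bases before to 50 bases after the gene start (RefSeq, GRCm38.p6, so on a later build than the positions above). Capitals mark matches on either strand to the core of the TATA box, TATAAA, to the GC box written as GGGCGG, and to the core bound by the TEAD partners of YAP, GGAATG. Of 32851 mouse promoters of this length, 13.6% held the TATA core, 35.7% the GC box and 14.7% the TEAD core. No match overlapped another.
Dhrs13, chr11:78032063-78032362, plus strand: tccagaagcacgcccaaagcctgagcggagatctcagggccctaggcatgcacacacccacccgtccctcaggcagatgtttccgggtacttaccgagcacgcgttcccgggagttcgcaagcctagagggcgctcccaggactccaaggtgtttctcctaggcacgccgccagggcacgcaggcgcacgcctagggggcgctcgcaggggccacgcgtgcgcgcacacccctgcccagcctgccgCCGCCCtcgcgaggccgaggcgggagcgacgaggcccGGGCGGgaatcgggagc
Hexim1, chr11:103116075-103116374, plus strand: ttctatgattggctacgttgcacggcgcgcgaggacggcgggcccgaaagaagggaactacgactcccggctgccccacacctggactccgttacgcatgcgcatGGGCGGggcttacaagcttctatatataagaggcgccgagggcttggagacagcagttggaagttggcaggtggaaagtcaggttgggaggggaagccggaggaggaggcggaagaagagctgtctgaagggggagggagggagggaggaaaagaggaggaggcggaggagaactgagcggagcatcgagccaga
Cyr61, chr3:145649936-145650235, minus strand: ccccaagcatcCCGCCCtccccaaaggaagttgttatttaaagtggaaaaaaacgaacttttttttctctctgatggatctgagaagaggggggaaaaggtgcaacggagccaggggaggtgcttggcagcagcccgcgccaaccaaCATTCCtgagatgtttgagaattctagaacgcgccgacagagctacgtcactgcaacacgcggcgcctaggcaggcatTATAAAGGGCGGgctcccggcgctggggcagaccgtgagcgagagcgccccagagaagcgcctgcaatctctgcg
The Dhrs13 window held the GC box at 2 places and the Hexim1 window at 1, and neither held the other motifs in these letters. The Cyr61 window held the TATA core at 1 place, the GC box at 2 and the TEAD core at 1. The matches describe the letters of these windows only.

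Immediate early transcription factors, which P-TEFb recruitment is known to govern in many cells, held no member called or lower at an unadjusted p under 0.05 with Cdk9-DN at day 4. Of 28 factors of the AP-1, Egr, Klf and Id kinds 15 were tested. At an unadjusted p under 0.05 there were 3, all higher, against 2.54% higher over all genes tested. They were Klf6, Id2 and Fosl2, and none was called. The median of the 15 was 0.04. Egr1 had 17.9 and 16.8 FPKM in Cdk9-DN cells and 17.4 and 16.5 FPKM in control cells, so the groups overlapped. Klf6, a zinc finger factor, had 19.2 and 17.7 FPKM with Cdk9-DN, against 15.4 and 15.1 FPKM in control cells. Id2, an inhibitor of basic helix-loop-helix factors, had 42.7 and 43.8 FPKM with Cdk9-DN, against 37.1 and 37.0 FPKM in control cells. Jund overlapped between the vectors, with 57.8 and 67.5 FPKM in Cdk9-DN cells and 61.7 and 57.3 FPKM in control cells. Junb had 58.5 and 65.5 FPKM in Cdk9-DN cells and 57.3 and 58.5 FPKM in control cells, so its lower Cdk9-DN value met the higher control value. The MAP kinase feedback regulators, which include Spry2 and Phlda1, had 8 members tested, 0 with an unadjusted p under 0.05 and a median of 0.04.

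Among genes induced by TGF-beta and by the Hippo effector YAP, 5 of the 7 tested of 17 lay above control and 2 below. None was called, and 3 had an unadjusted p under 0.05, all higher, against 2.54% higher over all genes tested. The median was 0.15. Ctgf, a secreted matricellular protein, had 192 and 191 FPKM in Cdk9-DN cells, against 172 and 173 FPKM in control cells. The groups did not overlap and were tight, and the log2 difference of 0.15 had an interval of 0.05 to 0.24 and an adjusted p of 0.588 in limma. Cyr61, its close relative, had 199 and 193 FPKM with Cdk9-DN, against 158 FPKM in the 1 control library that listed it. The Cyr61 difference was 0.31 with an adjusted p of 0.55 in limma. Tgfbi, a matrix protein, went the other way, with 15.4 FPKM in 1 Cdk9-DN library, against 17.4 and 17.9 FPKM in the control libraries, and Tgfb3 had a log2 difference of -0.10. Ctgf and Cyr61 lay higher with Cdk9-DN in every listed library of day 4, by 1.11 and 1.24 times.

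Krt6a, a stratified epithelial keratin of activated epidermis, gave the largest ratio among the named genes with values above 0 in all 4 libraries. It had 6.13 and 6.16 FPKM with Cdk9-DN, against 2.04 and 2.99 FPKM in control cells. The ratio of means was 2.44, the log2 difference 1.03 with an interval of 0.64 to 1.43, and the adjusted p 0.358 in limma. The groups did not overlap, with 121 and 120 implied fragments in Cdk9-DN and 35.9 and 58.8 in control libraries. Krt6a was also higher with Cdk9-DN on neighbouring days, at 9.75 FPKM with Cdk9-DN against 4.77 FPKM with the control vector on day 3. On day 5 it had 2.53 and 2.08 FPKM with Cdk9-DN, against 1.10 and 1.30 FPKM in control cells. Krt14, the basal epidermal keratin, had 10.6 and 10.5 FPKM with Cdk9-DN, against 8.18 and 8.14 FPKM in control cells. Sprr2b, a cornified envelope precursor, had 6.46 and 6.51 FPKM with Cdk9-DN, against 4.19 and 3.42 FPKM in control cells. Of 24 keratinocyte and trophoblast markers 9 were tested, 5 above and 3 below control, with a median of 0.19 at day 4 and 0 at day 5. None was called, and 4 had an unadjusted p under 0.05, all higher (Krt6a, Krt14, Sfn and Sprr1a), against 2.54% higher over all genes tested. The 3 below control were Krt17, Ly6d and Perp, at -0.14 to -0.03. Of the 5 defining keratinocyte markers 4 were listed. Their summed level was 18.8 and 17.9 FPKM with Cdk9-DN and 14.7 and 14.6 FPKM in control cells, with Krt4 at 0 in all 4 libraries and Krt5 below 1 FPKM. The part of such cells in these values was not tested.

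Simple epithelial genes, the class gained in the mesenchymal-to-epithelial transition, showed no common direction at day 4. Of 34 genes 14 were tested, 5 lay above and 8 below control, and the median was -0.0092. At an unadjusted p under 0.05 Krt20 was higher and Krt8 lower, against 2.54% higher and 3.98% lower over all genes tested. Krt8, a keratin of simple epithelium, had 4.7 and 6 FPKM with Cdk9-DN, against 6.93 and 7.19 FPKM in control cells. Its log2 difference was -0.35 with an interval of -0.58 to -0.13 and an adjusted p of 0.588 in limma. Krt8 lay below control on day 5 too, at 11 and 11.3 FPKM with Cdk9-DN and 15.6 and 15.5 FPKM with the control vector. Krt18, its partner keratin, was barely present, with 0.795 and 0.623 FPKM with Cdk9-DN and 0.755 and 0.426 FPKM in control cells. Cd24a, a surface glycoprotein, had 80.0 FPKM in 1 Cdk9-DN library and 82.2 and 79.4 FPKM in the control libraries. Cldn4 and Cldn9, tight junction proteins, stayed at or below 0.303 FPKM in all 4 libraries.

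Pluripotency genes gave no member past the threshold at day 4. Of 37 genes 15 were tested, 0 had an unadjusted p under 0.05, and the median was -0.02. Most tested members were near the floor at day 4, where little difference can show. Nr0b1, Nr5a2 and Sox15 were at 0 in every listed day 4 library. Tdgf1, Dppa5a, Zfp42, Utf1, Mycn, Gdf3 and Fbxo15 stayed below 1 FPKM. Nanog, a factor of the pluripotency network, had 0.911 and 0.692 FPKM with Cdk9-DN and 1.08 and 0.707 FPKM in control cells. Sox2 had 291 and 337 FPKM with Cdk9-DN and 373 and 367 FPKM in control cells, reads of the transduced and the endogenous gene together. The log2 difference of Sox2 was -0.24 with an interval of -0.54 to 0.06 and an adjusted p of 0.775 in limma. The 2 Sox2 groups did not overlap, but the interval spanned 0. Myc was listed in the control libraries alone at day 4, at 601 and 600 FPKM, and so could not be compared.

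Fibroblast genes gave values of both signs. Of 34 matrix and surface genes 8 were tested, 3 lay above and 5 below control, and the median was -0.11. At an unadjusted p under 0.05 there were 2, both lower (Mmp2, a gelatinase, and Thy1), against 3.98% lower over all genes tested. Mmp2 had 45.6 and 49.1 FPKM with Cdk9-DN, against 54.6 FPKM in the 1 control library that listed it. Above control lay Timp3, an inhibitor of matrix proteases, with 100.1 FPKM in 1 Cdk9-DN library and 97.3 and 95.3 FPKM in the control libraries, and Igfbp7, with 120.1 FPKM in 1 Cdk9-DN and 109.9 FPKM in 1 control library. Meox2, a mesodermal homeobox factor, had 6.01 and 6.52 FPKM with Cdk9-DN, against 8.46 and 8.07 FPKM in control cells, with an adjusted p of 0.358 in limma. The Meox2 groups did not overlap at day 4 or day 5, with Cdk9-DN lower each time. At day 4 such non-overlap on the lower side held for 18.7% of the 4750 genes tested and listed in all 4 libraries. Day 3 had 1 library per vector, so overlap could not be judged there, and the Cdk9-DN value was the lower. Twist1 and Twist2, drivers of mesenchymal identity, overlapped between the vectors. Twist1 had 60.4 and 50.8 FPKM with Cdk9-DN and 67.6 and 46.9 FPKM in control cells, so its replicates lay further apart than the groups. Snai1, a repressor of epithelial genes, had 13.5 and 16.9 FPKM with Cdk9-DN and 17.8 and 16.3 FPKM in control cells. Foxd1, a forkhead factor of the kidney stroma, had 10.9 and 9.77 FPKM with Cdk9-DN, against 17.4 and 13.3 FPKM in control cells, with an interval of -1.07 to 0.03 on the log2 scale.

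**Figure D3:**
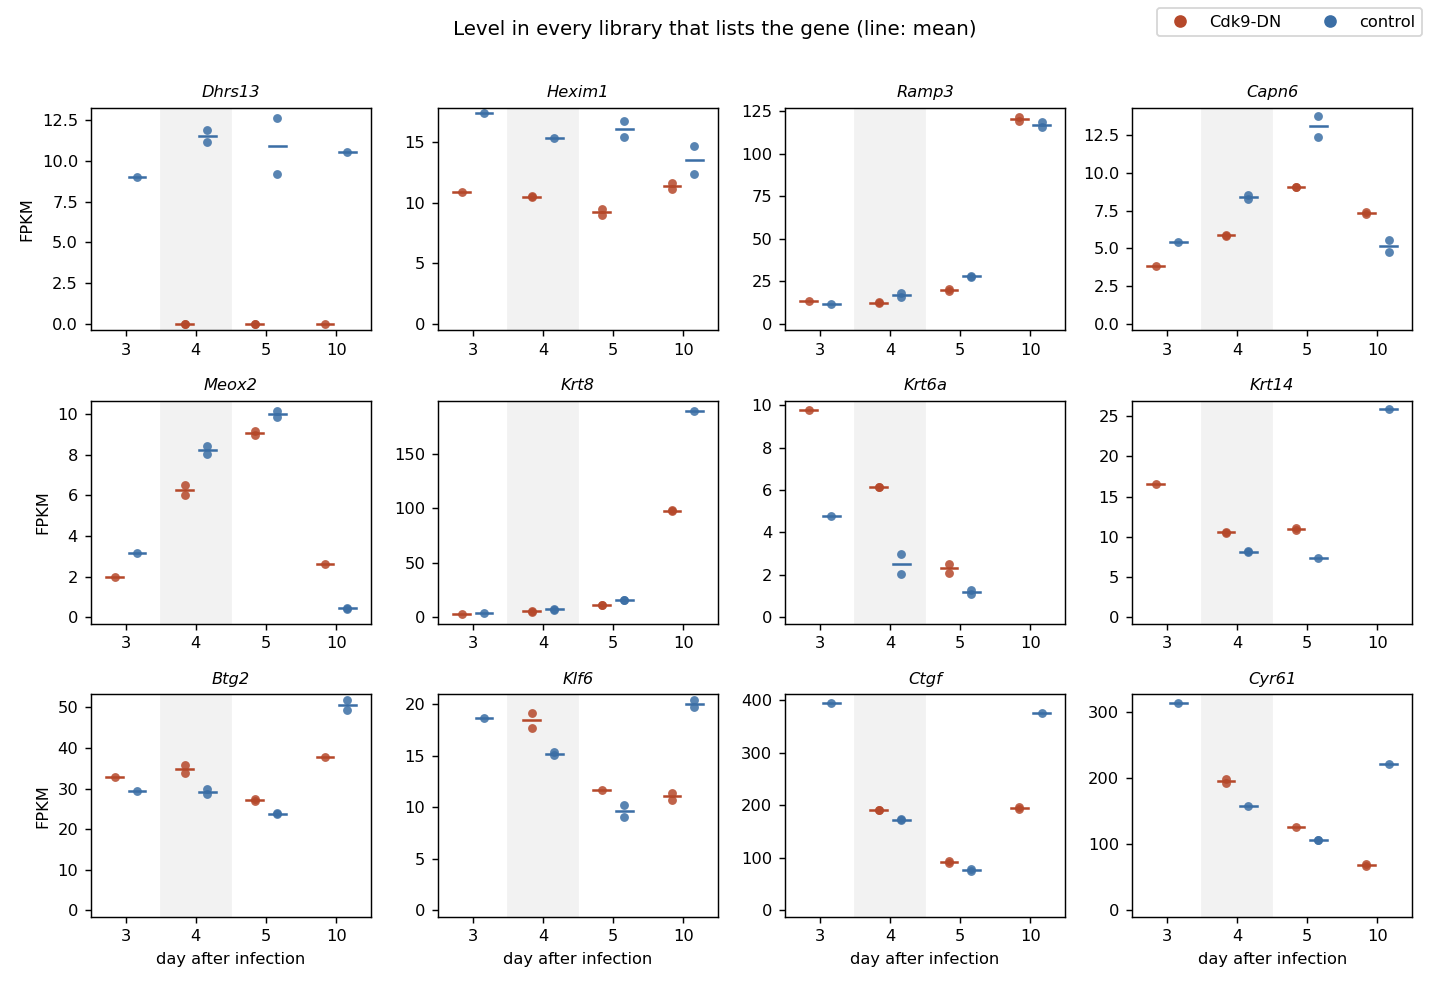
FPKM of 12 genes in every library that lists them, by day after infection, with Cdk9-DN to the left of control within each day, points for libraries and lines for means; day 4 is shaded. Dhrs13 is at 0 in all Cdk9-DN libraries, and Hexim1 is lower with Cdk9-DN on every day. Krt8, Btg2, Klf6, Ctgf and Cyr61 are lower with Cdk9-DN at day 10. Of these, Krt8 is also lower at day 4, while Btg2, Klf6, Ctgf and Cyr61 are higher there.

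Beyond the lists, the genes with the smallest p that missed the threshold gave small, tight differences. Ramp3, an accessory protein of the calcitonin receptor family, came nearest among the named genes listed in all 4 libraries. It had 12.7 and 12.3 FPKM with Cdk9-DN, against 16.1 and 17.9 FPKM in control cells, a log2 difference of -0.41 with an interval of -0.54 to -0.28 and an adjusted p of 0.181 in limma. Ramp3 passed when protein-coding genes alone were tested, an alternative chosen after seeing the data, and it was called lower at day 5 with an adjusted p of 0.0367. At day 5 Ramp3 had 19.5 and 20.7 FPKM with Cdk9-DN and 27.8 and 28.4 FPKM in control cells. At day 3 its single libraries had the opposite order, 13.5 FPKM with Cdk9-DN and 11.7 FPKM in the control.

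On the lower side followed Capn6, Marcksl1, H2afx, Slco2a1, Tspan7, Mgp, Tmem98, Gpx1 and Sdf2l1, with log2 differences of -0.45 to -0.20. Capn6, a calpain without protease activity that binds microtubules, had 5.92 and 5.83 FPKM with Cdk9-DN, against 8.27 and 8.56 FPKM in control cells. Marcksl1, an actin-binding substrate of protein kinase C, had 81.8 and 84.9 FPKM with Cdk9-DN, against 107 and 100.2 FPKM in control cells. H2afx, the histone variant phosphorylated at DNA breaks, had 74.0 and 81.5 FPKM with Cdk9-DN, against 93.6 and 99.6 FPKM in control cells. Gpx1, a glutathione peroxidase, had 486 and 491 FPKM with Cdk9-DN, against 561 FPKM in both control libraries. None of these genes overlapped between the groups, and non-overlap was itself frequent at 18.7% lower and 14.3% higher of the 4750 genes tested and listed in all 4 libraries.

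On the higher side the named genes were Krt6a, Krt14, Sprr2b, Klf6, Id2, Ctgf, Hist1h2bc, Hist1h1c, Hist1h4n, Btg2, Lcmt2 and Lpar6. Btg2, an antiproliferative p53 target, had 35.7 and 33.9 FPKM with Cdk9-DN, against 28.6 and 29.8 FPKM in control cells. Lpar6, a receptor for lysophosphatidic acid, had 8.36 and 8.29 FPKM with Cdk9-DN, against 6.74 and 6.63 FPKM in control cells. Lcmt2, a transfer RNA modification enzyme, had 6.53 and 7.09 FPKM with Cdk9-DN, against 4.65 and 5.38 FPKM in control cells. Each of these missed the threshold, with adjusted p of 0.361 for Btg2 and 0.55 for Lpar6 and Lcmt2 in limma.

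Replication-dependent histone genes, a class whose transcripts mostly end in a stem-loop without a poly(A) tail, had 54 members tested of 64 and 0 called. At an unadjusted p under 0.05 there were 4, all higher, against 2.54% higher over all genes tested. The median of the 54 was 0.03. Hist1h1c, a linker histone, had 48.5 and 54.3 FPKM with Cdk9-DN, against 38.8 and 41.0 FPKM in control cells. Hist1h2bc had 47.6 and 49.99 FPKM with Cdk9-DN, against 39.9 and 39.4 FPKM in control cells. Of the 54 members 30 lay above and 24 below control, so most of the family showed no common shift. Of 44 S phase and replication genes 9 were tested and 0 had an unadjusted p under 0.05, with a median of -0.05. Mcm2 and Mcm3, subunits of the replicative helicase, gave 45.0 and 46.9 FPKM of Mcm2 with Cdk9-DN and 47.3 and 49.7 FPKM in control cells. Of 35 mitosis genes 6 were tested and 5 lay below control, with a median of -0.13. At an unadjusted p under 0.05 there was 1, lower, against 3.98% lower over all genes tested. Ribosome biogenesis and Myc target genes had 6 members tested and a median of 0.0014. The 1 member with an unadjusted p under 0.05 was lower, against 3.98% lower over all genes tested. It was Rrs1, at 52.4 and 53.9 FPKM with Cdk9-DN and 59.9 and 56.5 FPKM in control cells.

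**Figure D4:**
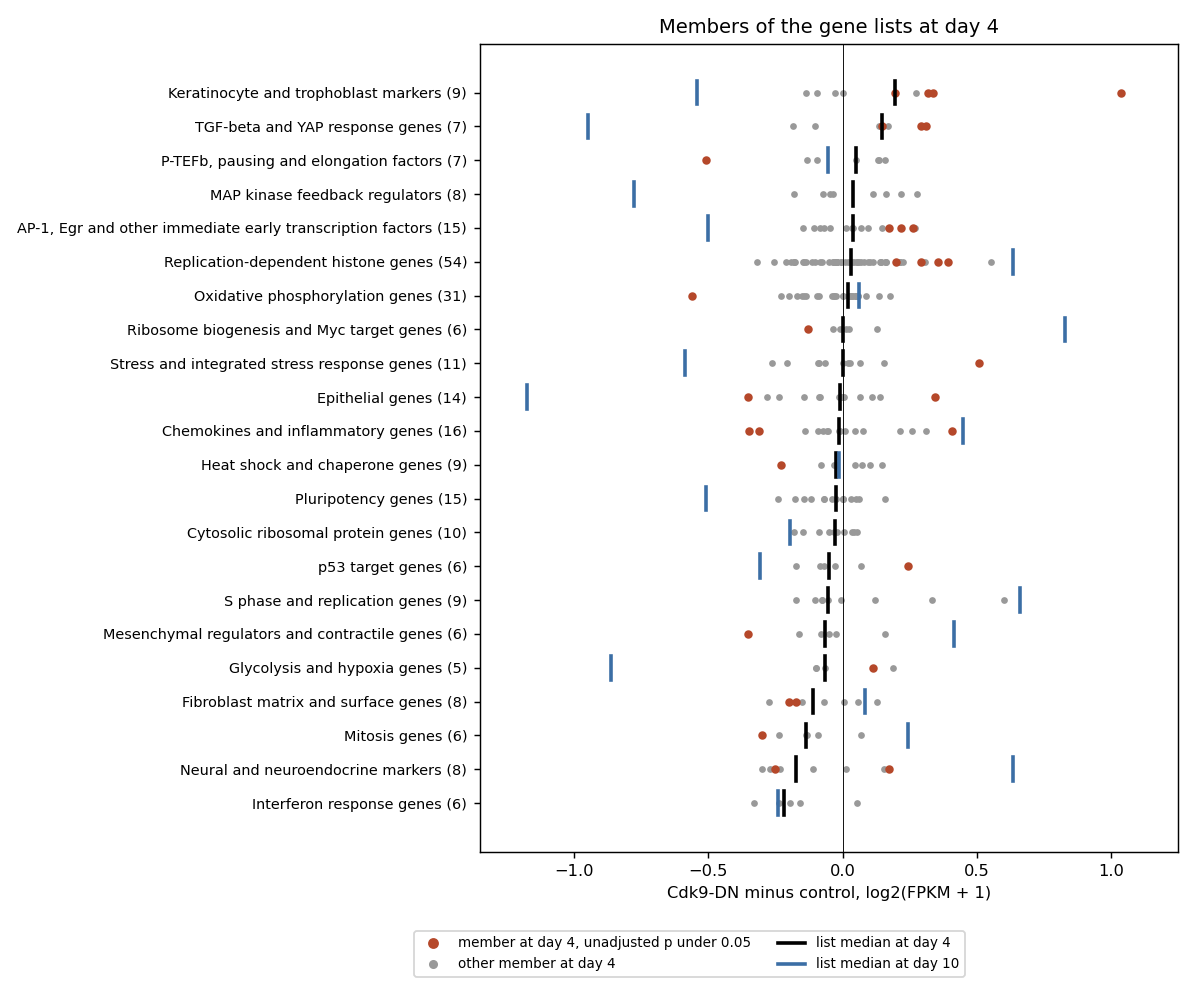
Log2 difference, Cdk9-DN minus control on log2(FPKM + 1), of the tested members (points) of 22 gene lists at day 4, with the list median at day 4 (black) and at day 10 (blue) and the number tested at day 4 in brackets; 1 interferon response gene (Ifitm1) lies outside the axis. Most day 4 medians lie within 0.2 of 0, and the day 10 medians lie further out for most lists, with epithelial and TGF-beta genes lower.

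The small day 4 differences had the same sign on the neighbouring days more often than those of all genes tested, and not at day 10. Of the genes with an unadjusted p under 0.05 at day 4 and a value at day 5, 265 of 360 (73.6%) had the same sign at day 5, against 56.5% of all genes tested. At day 3 the count was 203 of 305 (66.6%), against 55.4%, and at day 10 it was 167 of 351 (47.6%), against 49.1%. The days share no library, but the p of a gene used a spread pooled over days 4, 5 and 10. All genes tested also include genes near the floor. With a mean of at least 5 FPKM the day 5 shares were 74.8%, against 57.6%. Over the 360 genes the day 4 and day 5 differences correlated at 0.342 by Spearman and -0.05 by Pearson. These shares are descriptive. The day 5 comparison itself called 10 of 5902 genes (0.169%), and the day 10 comparison 1658 of 5740 (28.9%), with 14.4% called lower.

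Whether the Cdk9-DN effect differed between days was tested as the difference of the effects in the same fit. The effect at day 5 minus that at day 4 passed for 6 of 5694 genes (0.105%), 3 higher and 3 lower, with 247 (4.34%) at an unadjusted p under 0.05. The effect at day 10 minus that at day 4 passed for 869 of 5523 genes (15.7%), 439 higher (7.95%) and 430 lower (7.79%). Without Cdk9-DN replicate 1 of day 4 the count was 547, and without control replicate 2 it was 550. The epithelial genes stood on the lower side, with 12 of 13 tested members passing and a median difference of -0.93. Their day 10 median was -1.18, and all 13 were called lower at day 10. The TGF-beta and YAP response genes followed with 6 of 7 lower and a median difference of -1.09. Of the AP-1, Egr and other immediate early factors 7 of 14 passed on the lower side and 1 on the higher side, with a median difference of -0.57. The S phase genes had 5 of 8 passing on the higher side and 0 on the lower, with a median difference of 0.51.

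Single genes showed the change of the effect from day 4 to day 10. Krt18 had 7.10 and 6.31 FPKM with Cdk9-DN at day 10, against 86.6 and 83.8 FPKM in control cells, while at day 4 all 4 libraries were below 0.8 FPKM. Ctgf, slightly higher with Cdk9-DN at day 4, had 196 and 193 FPKM with Cdk9-DN at day 10 and 376 FPKM in the 1 control library that listed it. The Ctgf effect at day 10 minus that at day 4 was -1.09 with an adjusted p of 0.000237 in limma. Meox2, slightly lower with Cdk9-DN at day 4, had 2.61 FPKM in 1 Cdk9-DN library at day 10, against 0.417 and 0.456 FPKM in control cells. Its effect at day 10 minus that at day 4 was 1.68 with an adjusted p of 0.000352 in limma. Ctgf and Meox2 were among the genes of smallest p at day 4, a selection that favours such a change. Their effects at day 10 itself were -0.95 and 1.33, and both were called.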

How the data were processed

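The authors deposited 1 table of FPKM values with lower and upper bounds per library. The submitters' processing notes name CASAVA 1.8.2, TopHat2 2.0.10, Cufflinks 2.2.1 and the builds mm9 and NCBIM37, without saying what each did. No counts of reads entered the analysis. Unlisted genes had no value in a library, and a deposited 0 was kept. The bounds were read as 2 standard deviations of counting error to obtain implied fragments, an assumption that was not tested.

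A model with 1 mean for each of the 6 groups of days 4, 5 and 10 (12 libraries) was fitted to log2(FPKM + 1), pseudocount 1, with limma 3.58.1 in R 4.3.3 (trend, 1.15 prior degrees of freedom). Each gene used its listed libraries and needed 2 or more residual degrees of freedom. A group that listed a gene in 1 library added nothing to the spread of that gene. P-values are two-sided, with Benjamini-Hochberg adjustment across every gene tested in the contrast. Day 3 has 1 library per vector and stayed outside the fit. GENCODE M21 gave gene types and exon counts.

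The members and the 25 gene lists were chosen with earlier results of these data known. Named genes were the called genes, then genes by unadjusted p until 12 per direction, listed in all 4 libraries, without overlap and with a mean of at least 5 FPKM in the higher group. To these came up to 2 of the most abundant members of each list, the 5 highest and 5 lowest genes of each difference between days, and 17 genes by name, of which Fos gave no value. Other genes named behind a small count were chosen after their values were seen. Some genes that meet the rule are not reported here. Alternatives covered pseudocounts, filters, scaling, a replicate block and left-out libraries.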

Additional observations from a re-analysis of the deposited data

Results flagged for a closer look

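The genes below had a Cdk9-DN effect at a later day that differed from the effect at day 4 by the test of the difference itself (limma, adjusted p under 0.05). All values are the effect at the later day minus the effect at day 4, on log2(FPKM + 1), so a positive value means a Cdk9-DN level that stood higher against control at the later day than at day 4. They are named genes of the comparison at day 4, or among the 5 highest and 5 lowest of a difference. Selection by a small p at day 4 favours a difference of the opposite sign, because the same day 4 estimate is subtracted. Of genes named so on the higher side, Lpar6, Klf6, Id2, Ctgf and Btg2 were called lower at day 10 itself, and Lcmt2 higher.

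At day 10 against day 4, the epithelial genes had differences of -4.51 for Prss8, -3.60 for Krt18, -1.93 for Cldn4, -0.59 for Krt8 and -0.45 for Cd24a. Prss8, an epithelial serine protease, was at 0 FPKM in all 4 libraries of day 4. Other genes of tight junctions or of barrier epithelia had -2.61 for Cldn9, -1.27 for Cldn5 and -0.51 for Perp, and the lipoxygenase Alox15, the sodium pump subunit Atp1b1 and the arginase Arg1 had -3.17 for Alox15, -2.69 for Atp1b1 and -1.54 for Arg1. The matricellular and immediate early genes had -1.97 for Cyr61, -1.09 for Ctgf, -1.10 for Id2, -1.07 for Klf6 and -0.67 for Junb. Among other genes on the lower side were -1.24 for Lpar6, -0.93 for Hspb8, -0.86 for Ell2 and -0.66 for Btg2.

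On the higher side, the immediate early gene Egr1 had 0.43. Replication and ribosome biogenesis genes had 1.24 for Mcm2, 1.10 for Mcm3, 1.30 for Rrs1 and 0.91 for Ddx21. The mesodermal and stromal factors had 1.68 for Meox2 and 3.10 for Foxd1, the neuronal genes 2.42 for Nefl and 1.05 for Gap43, and the metallothioneins 1.05 for Mt1 and 1.17 for Mt2. Genes that stood slightly lower with Cdk9-DN at day 4 had 0.89 for Capn6, 0.77 for Slco2a1, 0.56 for H2afx, 0.54 for Tspan7, 0.49 for Sdf2l1, 0.48 for Marcksl1, 0.45 for Ramp3 and 0.35 for Tmem98. These genes were named for small p-values on the lower side at day 4, so a positive difference was favoured in advance. The effect at day 10 itself was 0.04 for Ramp3, 0.17 for Marcksl1 and 0.13 for Tmem98, and none of these was called. It was called higher for Capn6, Slco2a1, H2afx, Tspan7 and Sdf2l1. The remaining differences were 2.25 for Clec3b, 0.63 for Lcmt2, 0.57 for Cox6a1, 0.55 for Leo1, 0.43 for Spry2 and 0.25 for Pgam1.

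Some differences involve groups listed at 0 FPKM, so their size depends on the pseudocount. Pde12 had 3.55, with both control libraries of day 10 at 0, and Klk14 had 3.03, with the 1 listed control library of day 10 at 0. At day 5 against day 4, Pvrl2 had 4.29, with both control libraries of day 5 at 0. SNORA35 had 4.03 at day 5 and at day 10, and it was at 0 in every library outside the control group of day 4.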

How the results depend on the processing

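The count of 2 called genes at day 4 became 6 with a pseudocount of 0.1 (3 higher, 3 lower), 19 without a minimum FPKM (4 higher, 15 lower), 7 with the day 4 libraries alone (4 higher, 3 lower), 0 without genes at 0 FPKM in any day 4 library and 4 with protein-coding genes alone (the last 2 alternatives chosen after seeing the data). Leaving out 1 day 4 library at a time gave 6 to 10, with the lone sample assumed to vary like the other groups; Dhrs13 and SNORA35 were called each time. The count of the day 5 minus day 4 difference (6) became 28 without a minimum FPKM, 3 with the filter on the day 4 libraries, 2 without genes at 0, 3 with protein-coding genes alone and 11 to 14 with 1 library left out. The count of 869 for the day 10 minus day 4 difference became 547 to 607 with 1 library left out, and was 652 to 934 under the other settings apart from the replicate block. The day 4 libraries alone give no difference between days. The cause of these changes was not tested, except that fewer libraries or genes entered some fits. Of 1513 recomputed values of named genes, 1483 kept their direction and side of the threshold, 24 of genes that had missed it changed sign, 1 gained the call (Ramp3) and 5 lost it, and no called value changed sign. Of 421 list medians, 382 moved by less than the spread between replicates. Dhrs13 lost its call with the replicate block (adjusted p 0.212) and SNORA35 with the day 4 libraries alone.

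Same-numbered libraries were checked for shared deviations. The correlation of the difference between replicates 1 and 2 was 0.0217 at day 4, 0.0616 at day 5 and -0.016 at day 10 (Pearson). By Spearman it was 0.209 at day 4, 0.0338 at day 5 and 0.0445 at day 10, so a shared deviation by ranks was present at day 4. The labels name no shared source and each vector has 2 numbers a day, so the numbers were not taken to pair the samples. With the replicate block, 2 genes were called at day 4 (SNORA35 and SNORD113), 4 for the day 5 minus day 4 difference and 199 for the day 10 minus day 4 difference. Depth limits genes of few fragments, among them nearly all small RNA genes at 0 in 1 group.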

Other observations

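Metabolic and stress genes at day 4 lay near control. Over all genes tested 6.52% had an unadjusted p under 0.05, 2.54% higher and 3.98% lower. Of 31 tested oxidative phosphorylation genes 1 had an unadjusted p under 0.05, with a median log2 difference of 0.02. Cox8a, a subunit of cytochrome c oxidase, had 564 and 551 FPKM with Cdk9-DN and 568 and 546 FPKM in control cells. Of 9 heat shock and chaperone genes 1 had an unadjusted p under 0.05, with a median of -0.02, and of 10 cytosolic ribosomal protein genes 0 did, with a median of -0.03. Of 11 stress response genes 1 did, Nqo1, a quinone reductase, with 18.5 and 16.5 FPKM with Cdk9-DN and 12 FPKM in the 1 control library that listed it. Cholesterol synthesis genes had 3 members tested and 0 with an unadjusted p under 0.05. The glycolysis and hypoxia genes had 5 tested and 1 higher, Pgam1, at 194 FPKM in 1 Cdk9-DN library and 179 FPKM in both control libraries.

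Inflammatory and other cell type genes gave small values of both signs. Of 16 chemokine and inflammatory genes 1 was higher and 2 were lower at an unadjusted p under 0.05, with a median of -0.01. For this list and those that follow, the shares over all genes tested were 2.54% higher and 3.98% lower. Ptgs2, the inducible cyclooxygenase, had 27.3 and 24.4 FPKM with Cdk9-DN and 19.2 FPKM in the 1 control library that listed it. Of 6 interferon response genes 0 had an unadjusted p under 0.05, with a median of -0.22. Ifitm1 of that group had 40.8 and 0 FPKM with Cdk9-DN and 61.1 FPKM in the 1 control library that listed it. Of 8 neural markers 1 was higher (Nes) and 1 lower (Gap43), with a median of -0.17, and Gap43, a growth cone protein, had 24.2 and 23.6 FPKM with Cdk9-DN and 28.6 and 28.8 FPKM in control cells. Of 6 p53 targets 1 was higher (Btg2), and of 6 mesenchymal regulators 1 was lower (Meox2). The endothelial and muscle list had 1 tested member, Cldn5, at 0 in all 4 libraries, and the macrophage and blood list had 2, with 2.57 and 2.59 FPKM of Lyz2 with Cdk9-DN and 2.40 and 1.84 FPKM in control cells.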
